A study of Mus musculus with 10 samples.

Results

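Forebrain and cortical transcription factors were followed through brain RNA-seq of Slc20a2-deficient mice. The 8 genes were Emx1, Emx2, Tbr1, Neurod6, Bcl11b, Fezf2, Lhx2 and Eomes, chosen by name among the 54532 genes of the count table, and each name matched 1 row. All 8 had enough counts to be tested. The study asked whether FTY720, a sphingosine-1-phosphate receptor modulator that holds lymphocytes in lymph nodes, affects brain calcification in mice labelled as knockouts of the phosphate transporter gene Slc20a2.

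All 10 mice were labelled Slc20a2 homozygous knockouts (Slc20a2-HO; per the methods the line carries the tm1a(EUCOMM)Wtsi allele), and no wild-type library was analysed here. FTY720 at 0.5 mg/kg (6 mice) or placebo (4 mice) was given from the age of 1.5 months for 12 weeks. Each mouse name starts with F or P and then carries the digit 1 or 3. Neither the labels nor the methods explain that digit. It was 1 in 4 mice (F1-622, F1-624, F1-918 and P1-623) and 3 in 6 (F3-609, F3-612, F3-908, P3-612, P3-904 and P3-907). FTY720 and placebo were therefore unevenly spread over the digits, with 3 of 4 digit 1 mice and 3 of 6 digit 3 mice on FTY720.

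Totals ran from 14772745 to 18303981 counts per library. Slc20a2 itself had 89 to 294 counts in every mouse, with no wild-type level to set beside them, and it was higher with digit 3 (log2 fold change 0.73 ± 0.15 SE, adjusted p = 0.0046, edgeR quasi-likelihood test). The libraries stood apart by digit. Of 17665 genes tested with treatment as a covariate, 2548 were lower with digit 3 (14.4%) and 2462 were higher (13.9%) at an adjusted p under 0.05. Each mouse gave 1 library labelled only as brain, and the p-values measure the spread between these libraries. Per the methods, RNA came from only a part of each brain and the rest was fixed, without a statement of which part.

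The members belong to a small set of transcription factors that lay out the telencephalon and its cortex. Emx1, Emx2 and Lhx2 are homeodomain proteins of dorsal forebrain progenitors. Eomes (Tbr2) and Tbr1 are T-box factors expressed in sequence as cortical progenitors become glutamatergic neurons. Neurod6 is a basic helix-loop-helix factor of young and mature pyramidal neurons, while Fezf2 and Bcl11b (Ctip2) are zinc finger proteins that specify subcerebral projection neurons. Several are also used outside the cortex in the adult brain. Bcl11b is strongly expressed in striatal projection neurons, Emx2 and Lhx2 are found in some non-neuronal or diencephalic cells, and Eomes and Tbr1 label mitral and tufted cells of the olfactory bulb. Eomes is also a marker of unipolar brush cells, excitatory interneurons of the cerebellar granular layer.

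The promoters of both paralogue pairs are shown, because Emx1 and Emx2 fell together between the digits while Tbr1 and Eomes did not. Promoters came from RefSeq (GRCm38.p6, 250 bases before to 50 after the annotated start), where all 8 members had an entry. Capitals mark the homeodomain core TAATTA and the loose T-box core AGGTGNNA on either strand, motifs picked after the sequences had been read.
Emx1, chr6:85187681-85187980, plus strand: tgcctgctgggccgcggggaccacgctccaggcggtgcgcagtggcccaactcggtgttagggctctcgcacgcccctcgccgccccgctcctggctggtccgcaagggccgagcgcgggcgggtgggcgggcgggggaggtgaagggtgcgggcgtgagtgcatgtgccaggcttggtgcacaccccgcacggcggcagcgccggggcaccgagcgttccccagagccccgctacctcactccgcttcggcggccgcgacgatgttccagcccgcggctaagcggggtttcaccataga
Emx2, chr19:59458440-59458739, plus strand: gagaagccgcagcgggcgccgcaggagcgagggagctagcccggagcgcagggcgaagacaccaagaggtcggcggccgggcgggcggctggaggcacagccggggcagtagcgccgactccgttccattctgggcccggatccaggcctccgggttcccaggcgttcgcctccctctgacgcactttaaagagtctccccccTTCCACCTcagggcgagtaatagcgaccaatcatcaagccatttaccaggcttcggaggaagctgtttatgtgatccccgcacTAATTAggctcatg
Tbr1, chr2:61804203-61804502, plus strand: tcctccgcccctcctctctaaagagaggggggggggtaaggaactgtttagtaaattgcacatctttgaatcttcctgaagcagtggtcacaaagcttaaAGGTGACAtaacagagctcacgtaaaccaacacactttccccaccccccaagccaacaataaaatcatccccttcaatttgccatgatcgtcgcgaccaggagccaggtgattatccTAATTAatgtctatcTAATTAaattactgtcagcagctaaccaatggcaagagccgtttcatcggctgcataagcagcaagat
Eomes, chr9:118477939-118478238, plus strand: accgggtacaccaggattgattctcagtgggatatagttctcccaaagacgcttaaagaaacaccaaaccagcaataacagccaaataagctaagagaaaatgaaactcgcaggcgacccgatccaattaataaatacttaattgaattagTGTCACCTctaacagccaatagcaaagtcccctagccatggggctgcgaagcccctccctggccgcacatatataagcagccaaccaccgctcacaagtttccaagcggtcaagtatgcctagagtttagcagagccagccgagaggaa

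The Tbr1 promoter held 2 matches to TAATTA and that of Emx2 held 1, and no match was found in the windows of the other members. TAATTA occurred in 5.29% of the 32851 mouse promoters of this length. AGGTGNNA was present in the windows of Emx2, Tbr1, Bcl11b and Eomes, against 16% of all promoters, and the stricter T-box site AGGTGTGA (1.28% of all promoters) in none of the members. The E-box CAGNTG, found in 51.4% of all promoters, was present for Tbr1, Neurod6 and 1 of the 2 Lhx2 promoters. The Emx1 window was rich in G and C (74%) and that of Tbr1 was not (46%). These matches describe letters in a window and were not tied to any difference below.

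Per length of transcript, Neurod6 and Tbr1 were the most abundant members and Eomes the least. In the digit 1 mice the mean FPKM, which divides counts by gene length and library size, was 25.8 ± 5.77 for Neurod6 (SD, n = 4), 20.2 ± 1.23 for Tbr1 and 13.9 ± 0.835 for Lhx2. It was 11.9 ± 1.74 for Bcl11b, 7.09 ± 0.931 for Fezf2 and 6.54 ± 0.951 for Emx1. Emx2 (2.75 ± 0.605) and Eomes (0.517 ± 0.184) were lowest. Neighbours in this order had overlapping ranges for Neurod6 and Tbr1, for Lhx2 and Bcl11b, and for Fezf2 and Emx1. With digit 3 the order was the same except that Bcl11b (9.17 ± 0.959, n = 6) stood above Lhx2 (8.28 ± 1.04), again with overlapping ranges.

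In the digit 3 mice 7 of the 8 genes were lower, by amounts that left between 42.0% (Emx1) and 77.3% (Bcl11b) of the digit 1 level, while Eomes lay at 155% without passing the adjusted threshold. Thus 7 of 8 passed in the lower direction, against 14.4% of all genes tested, and 0 of 8 in the higher direction, against 13.9%. The median log2 fold change was -0.59 over the members and -0.011 over all genes. For 5 of 8 (Emx1, Tbr1, Neurod6, Fezf2 and Lhx2) every digit 3 mouse lay below every digit 1 mouse, which 6.41% of all genes did. Levels of a single gene are given below in CPM, its count divided by the scaled library total.

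**Figure D1:**
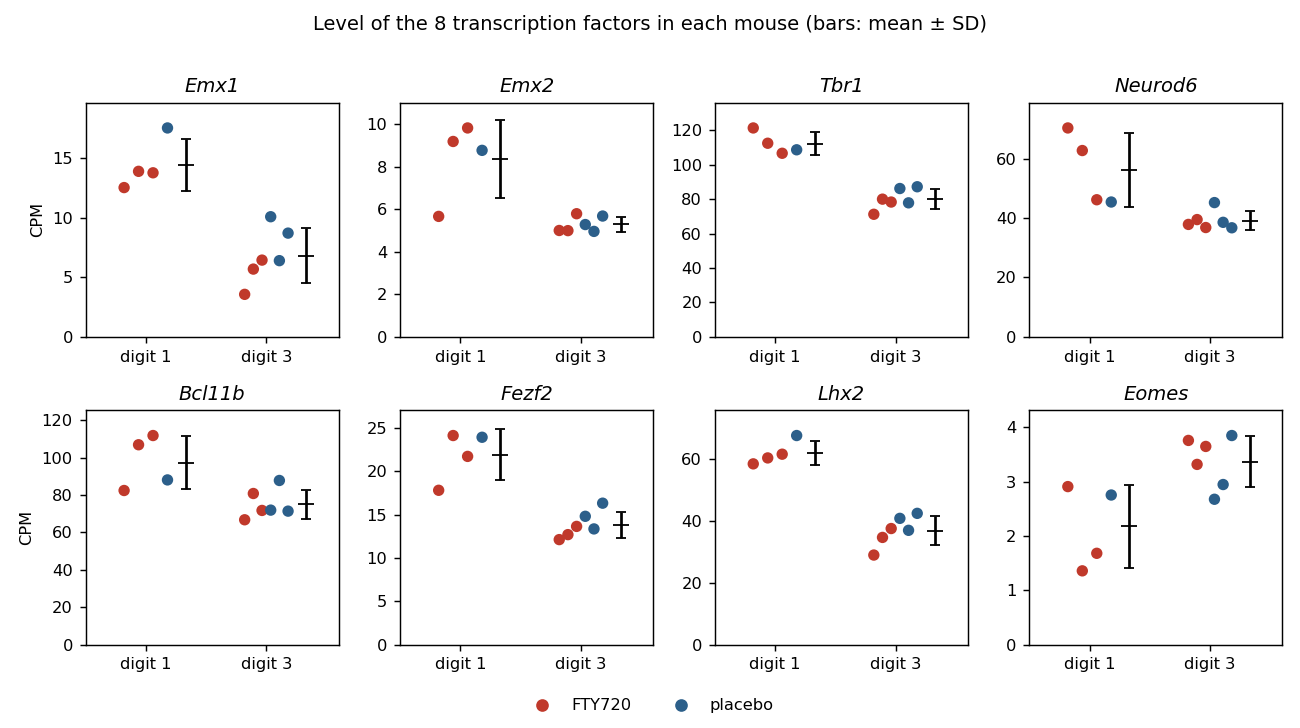
CPM (y axis) of each member in every mouse, with digit 1 mice on the left and digit 3 mice on the right of each panel. Points are mice, coloured by treatment, and the black bars give the mean ± SD (n = 4 and 6). Digit 3 mice lie below all digit 1 mice for Emx1, Tbr1, Neurod6, Fezf2 and Lhx2, and tend to lie above them for Eomes, from 2.67 to 3.85 against 1.36 to 2.91 CPM.

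Among the progenitor homeodomain genes, Emx1 (chr6:85187438-85204462, GRCm38) fell most. Its level was 12.5, 13.9 and 13.8 CPM in F1-622, F1-624 and F1-918 and 17.6 CPM in P1-623, against a lowest value of 3.58, a median of 6.43 and a highest of 10.1 CPM in the 6 digit 3 mice. The groups did not overlap, and the lowest mouse, F3-609, had 60 counts. The log2 fold change was -1.25 ± 0.18 (SE, adjusted p = 0.00044, edgeR), and the exact permutation test gave p = 0.0095, where 0.0048 is the smallest that 210 splits allow.

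Lhx2 (chr2:38339281-38369733), needed for cortical identity in the embryo, had the smallest p of the members. It stood at 58.3, 60.2, 61.4 and 67.4 CPM in the digit 1 mice F1-622, F1-624, F1-918 and P1-623. In the digit 3 mice the lowest value was 28.9, the median 37.1 and the highest 42.3 CPM. A wide gap separated the groups (log2 fold change -0.81 ± 0.095 SE, adjusted p = 0.00012, edgeR). The gene overlaps the annotated genes Gm27197 and Gm13584, and the strand setting of the counting is not stated, so the share of reads from these is uncertain.

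Emx2 (chr19:59458372-59465357) was lower with digit 3, but its groups overlapped. The digit 1 values were 5.67 CPM in F1-622, 9.20 in F1-624, 9.83 in F1-918 and 8.78 in P1-623, and the digit 3 mice lay between 4.97 and 5.80 CPM with a median of 5.15. F1-622 alone sat within the digit 3 range. The log2 fold change was -0.67 ± 0.16 (SE, adjusted p = 0.010, edgeR); without P1-623 the adjusted p was 0.063, and in FTY720 mice alone 0.071. Emx2 overlaps the antisense transcript Emx2os, which had 42 to 76 counts per mouse beside 80 to 164 for Emx2 and a log2 fold change of -0.23 ± 0.18 (SE, adjusted p = 0.36, edgeR).

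Among the projection neuron factors, Fezf2 (chr14:12342094-12348189), which directs the corticospinal fate, had 17.8, 24.1, 21.7 and 23.9 CPM in F1-622, F1-624, F1-918 and P1-623. The digit 3 mice lay between 12.1 and 16.3 CPM, with a median of 13.5. No digit 3 mouse reached the lowest digit 1 mouse (log2 fold change -0.72 ± 0.11 SE, adjusted p = 0.0010, edgeR). Bcl11b (chr12:107910403-108003602), which acts downstream of Fezf2 in these neurons, changed least of the 7. Its digit 1 values were 82.4, 107, 112 and 88.1 CPM in the same order, and the digit 3 values ran from 66.8 through a median of 71.9 to 87.8 CPM. F1-622 was inside the digit 3 range and P1-623 just above it. The log2 fold change of -0.37 ± 0.12 (SE, adjusted p = 0.030, edgeR) did not pass without any 1 of 6 mice (F1-624, F1-918, F3-609, F3-908, P1-623 or P3-907), when the adjusted p was 0.054 to 0.098.

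Tbr1 (chr2:61802930-61814114), a factor of layer 6 and other early-born neurons, varied little within each digit. It had 121, 112, 107 and 109 CPM in F1-622, F1-624, F1-918 and P1-623, and 71.2 to 87.2 CPM (median 79.1) in the digit 3 mice. The groups were clearly apart (log2 fold change -0.51 ± 0.084 SE, adjusted p = 0.0013, edgeR). Neurod6 (chr6:55677822-55681263) was more spread among the digit 1 mice, with 70.3, 62.7, 46.2 and 45.4 CPM, and reached 36.7 to 45.2 CPM (median 38.2) in the digit 3 mice. Its groups were separated only by the small gap between P1-623 and P3-612. The log2 fold change was -0.50 ± 0.14 (SE, adjusted p = 0.017, edgeR), and without F3-609 the adjusted p was 0.058.

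Eomes (chr9:118478212-118486132) went the other way, at low counts of 23 to 71 per mouse. The digit 1 values were 2.91 CPM in F1-622, 1.36 in F1-624, 1.68 in F1-918 and 2.75 in P1-623, and the digit 3 mice lay between 2.67 and 3.85 CPM, with a median of 3.48. F1-622 and P1-623 fell within the digit 3 range. The log2 fold change of 0.63 ± 0.25 (SE, adjusted p = 0.070, edgeR) missed the threshold. Of 19 alternative settings 3 passed, with an adjusted p of 0.0498 with DESeq2, 0.038 without F1-622 and 0.046 without P3-612. The other 16 did not pass, and the adjusted p rose to 0.16 without F1-624 and 0.158 without F1-918 (edgeR). The Gm33460 gene overlaps Eomes, so part of these counts is uncertain.

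**Figure D2:**
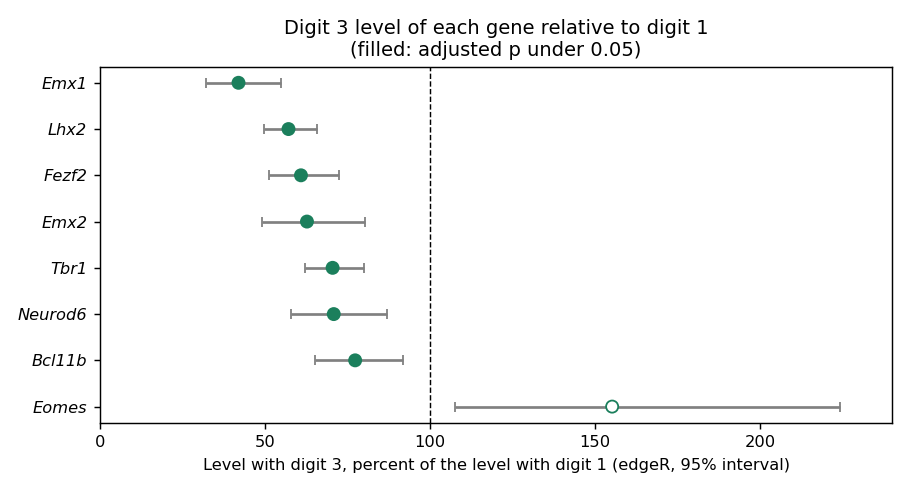
Level of each member in the digit 3 mice as a percent of its level in the digit 1 mice (x axis), from the edgeR fit with treatment as covariate. Points are the fitted values, bars the 95% intervals, and filled points passed an adjusted p of 0.05. The fitted level ranges from 42.0% for Emx1 (interval 32.2 to 54.7) to 77.3% for Bcl11b (65.0 to 91.9), and Eomes lies at 155% (107 to 224).

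The share of the digit 1 level that remained with digit 3 was set out gene by gene. The fitted percent was 42.0 for Emx1 (95% interval 32.2 to 54.7), 57.1 for Lhx2 (49.6 to 65.8) and 60.9 for Fezf2 (51.3 to 72.3). It was 62.7 for Emx2 (49.0 to 80.2), 70.5 for Tbr1 (62.1 to 80.0), 70.8 for Neurod6 (57.8 to 86.8) and 77.3 for Bcl11b (65.0 to 91.9). The interval of Emx1 lies below those of Tbr1, Neurod6 and Bcl11b, and overlaps those of Lhx2, Fezf2 and Emx2. In bulk tissue, fewer cells of a type and less RNA per cell cannot be told apart.

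Ratios of 2 members within 1 library do not depend on how libraries are scaled, and all 28 pairs were compared between the digits by exact permutation tests, with the p-values adjusted over the 28. In all, 8 pairs passed, each at an adjusted p of 0.033, namely all 7 pairs with Eomes and Tbr1 with Lhx2. The log2 ratio of Tbr1 to Lhx2 was 0.74, 0.58, 0.48 and 0.37 in F1-622, F1-624, F1-918 and P1-623, and 0.72 to 0.98 in the digit 3 mice, a mean difference of 0.27 with F1-622 inside the digit 3 range. Thus Lhx2 was lower relative to Tbr1 with digit 3. The ratio of Tbr1 to Eomes fell by 1.17 on the log2 scale and that of Emx1 to Eomes by 1.82, both without overlap.

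Emx1 was lower relative to each of the other 6 falling members, but 0 of those 6 ratios passed the adjustment. The ratio differed by -0.65 on the log2 scale against Tbr1 (exact permutation p = 0.024, adjusted 0.074), -0.77 against Bcl11b (0.038, adjusted 0.11) and -0.38 against Lhx2 (0.071, adjusted 0.13). F3-609 was lowest and P3-612 highest of the digit 3 mice in the ratio to Lhx2, at -1.99 and -1.0, and P3-612 lay inside the digit 1 range of -1.20 to -0.93. Without P3-612, the ratios of Emx1 to Lhx2, Tbr1, Bcl11b and Fezf2 each passed (adjusted p = 0.037 for each, exact permutation test). Without F1-622, 9 pairs passed and without P3-612, 12. Without any 1 of the other 8 mice 0 passed, and with fewer mice the smallest exact p that the splits allow is larger.

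**Figure D3:**
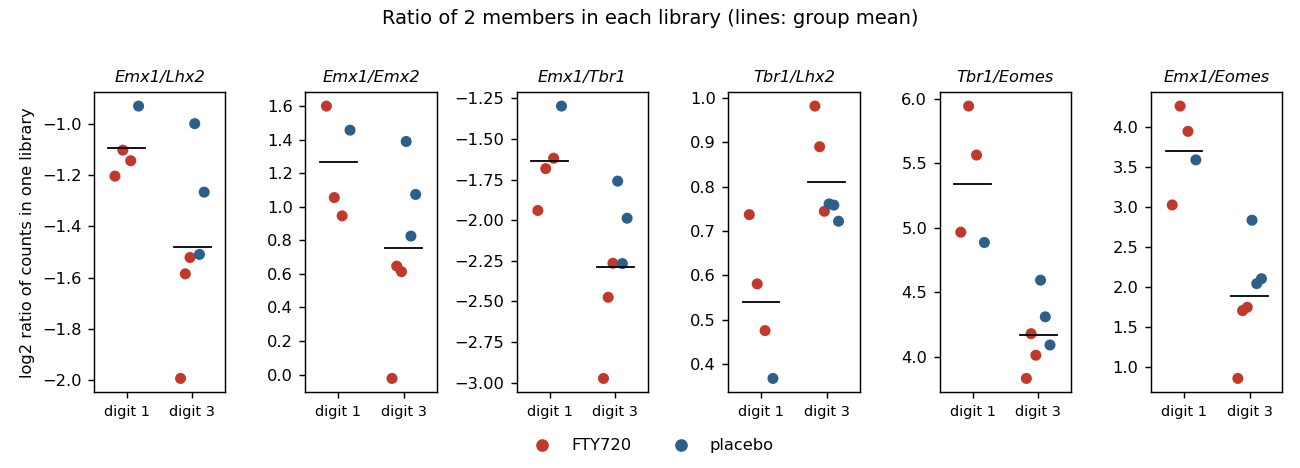
Log2 ratio of the counts of 2 members within 1 library (y axis, a different range in each panel) for 6 of the 28 pairs, by digit. Points are mice, coloured by treatment, and lines are group means. The ratio of Tbr1 to Eomes is 4.89 to 5.94 with digit 1 and 3.83 to 4.59 with digit 3, while in the ratio of Emx1 to Lhx2 F3-609 (-1.99) and P3-612 (-1.0) stand at opposite ends of the digit 3 mice.

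Among mice of the same digit, the members varied in how far they moved together. Log2 levels of Emx1 and Lhx2 had a Pearson r of 0.97 over the 10 mice, of 0.97 after each digit mean was taken off, and of 0.97 over the 6 digit 3 mice. For the other pairs named, r is given on the deviations of the 10 mice from the digit means and then over the 6 digit 3 mice. It was 0.69 and 0.95 for Emx1 and Tbr1, 0.64 and 0.94 for Tbr1 and Lhx2, and 0.76 and 0.91 for Fezf2 and Lhx2. It was 0.06 and 0.13 for Emx1 and Bcl11b, -0.67 and -0.30 for Emx2 and Neurod6, and -0.77 and -0.49 for Bcl11b and Eomes. The points share libraries and normalization, and the values are given as a description.

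The genes most like each member over the 10 mice were sought among the other 14776 protein-coding genes tested. For Emx1 they were Nrgn, the postsynaptic calmodulin-binding protein neurogranin (r = 0.991), and Cspg5, a neural proteoglycan (r = 0.990). For Lhx2 they were Cbarp, a regulator of voltage-gated calcium channels (r = 0.995), and Pld3 (r = 0.992). Tbr1 was closest to Ak5 and Nptxr (r = 0.987 and 0.986), Fezf2 to Cnih3 and Mgll (0.986 and 0.980), and Emx2 to Wdr6 and Man1b1 (0.971 and 0.969). Neurod6 was closest to Creg2 and Plppr1 (0.965 and 0.952) and Bcl11b to Sez6l and Vipr1 (0.966 and 0.962). Eomes had the weakest best match, Neu3, at r = 0.928, followed by Gm7361 at 0.920. The likeness contains the step between the digits, which many genes share.

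Other genes of the same neurons gave a mixed picture. Of 28 further transcription factors of projection neurons, 9 were lower and 6 higher with digit 3, with a median log2 fold change of -0.15. The 3 with the smallest p were Neurod1 (3.0 ± 0.098 SE), which cerebellar granule cells also express, Etv1 (1.22 ± 0.094 SE), a factor of layer 5 that granule cells express as well, and Pou3f1 (-1.02 ± 0.13 SE), a POU factor of subcerebral neurons. Of 24 effector genes of projection neurons, 15 were lower and 1 was higher, with a median of -0.47. Ntsr1, a marker of layer 6 corticothalamic neurons, fell by 0.83 and Crym by 0.88 on the log2 scale, and Cntn6, also a granule cell adhesion molecule, was the 1 that rose (0.88).

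Genes of the subpallium, the source of forebrain interneurons and striatal neurons, were lower too. Of 21 subpallial transcription factors tested, 14 were lower and 1 higher, with a median of -0.49. Sp8 (-1.71) and Dlx1 (-0.95) of interneurons fell, and Ebf1, of striatal neurons and also of hindbrain cells, rose (1.98). Of 10 diencephalic factors tested, 2 were lower (Gbx2 at -0.75 and Fezf1 at -1.40) and 1 was higher, Lhx1 (3.19), which Purkinje cells express. These counts are near the shares of all genes tested, 14.4% lower and 13.9% higher. Among immature neuron and progenitor genes, where Eomes and Emx2 are also used, 5 of 11 were lower and 0 higher, among them Sox11 (-0.62) and Sox4 (-0.76). The other 6 did not pass. Of these, 4 lay above 0, namely Dcx (0.17), Mki67 (0.15), Egfr (0.15) and Draxin (0.14), with Top2a (-0.38) and Nes (-0.06) below.

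Cerebellar and hindbrain genes moved in the opposite direction to the 7 falling members. Of 22 cerebellar and hindbrain transcription factors tested, 21 were higher with digit 3 and 0 lower, with a median log2 fold change of 2.37, including En2 (4.57), Zic1 (1.89) and Tfap2b (2.84). All 8 granule and Purkinje cell genes were higher (median 4.80). Of their sum in the digit 1 mice, 702 to 818 CPM, Itpr1 and Calb1 gave 650 to 777 CPM, and both are also widely used by neurons outside the cerebellum. The other 6 genes, set apart after their values were seen, summed to 41.3 to 53.0 CPM with digit 1 and 910 to 1037 CPM with digit 3. In the digit 1 mice Gabra6, the GABA receptor subunit of granule cells, lay between 0.059 and 0.24 CPM, and Pcp2 of Purkinje cells between 0 and 0.24 CPM. With digit 3 they reached 130 to 172 CPM for Gabra6 and 20.1 to 33.7 CPM for Pcp2. These defining markers were thus at or near 0 in all digit 1 libraries labelled brain. The part that such a difference in tissue has in the levels of the members was not tested.

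The 2 adult brain cell types named above for Eomes were looked at by their other markers. Among 6 unipolar brush cell genes, 3 were higher and 0 lower with digit 3, among them Plcb4 (0.98), which Purkinje cells also express. Otx2 (0.45, adjusted p = 0.0505), Calb2 (0.37, adjusted p = 0.077) and Lmx1a (-0.19, adjusted p = 0.68) did not pass in edgeR. Their summed level was 271 to 293 CPM with digit 1 and 428 to 516 CPM with digit 3. Among 4 mitral and tufted cell genes tested, Cdhr1 (-0.95) and Shisa3 (-1.05) were lower, and Doc2g (-0.79, adjusted p = 0.083, edgeR) and Nmb (-0.39, adjusted p = 0.25, edgeR) did not pass. The mitral and tufted cell genes summed to 32.3 CPM in F1-622, 15.0 in F1-624, 26.6 in F1-918 and 31.6 in P1-623, and to 12.6 to 17.9 CPM in the digit 3 mice. Among the digit 1 mice, F1-624 was lowest and F1-622 and P1-623 were highest both in this sum and in Eomes. The part of either cell type in the level of Eomes was not tested.

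**Figure D4:**
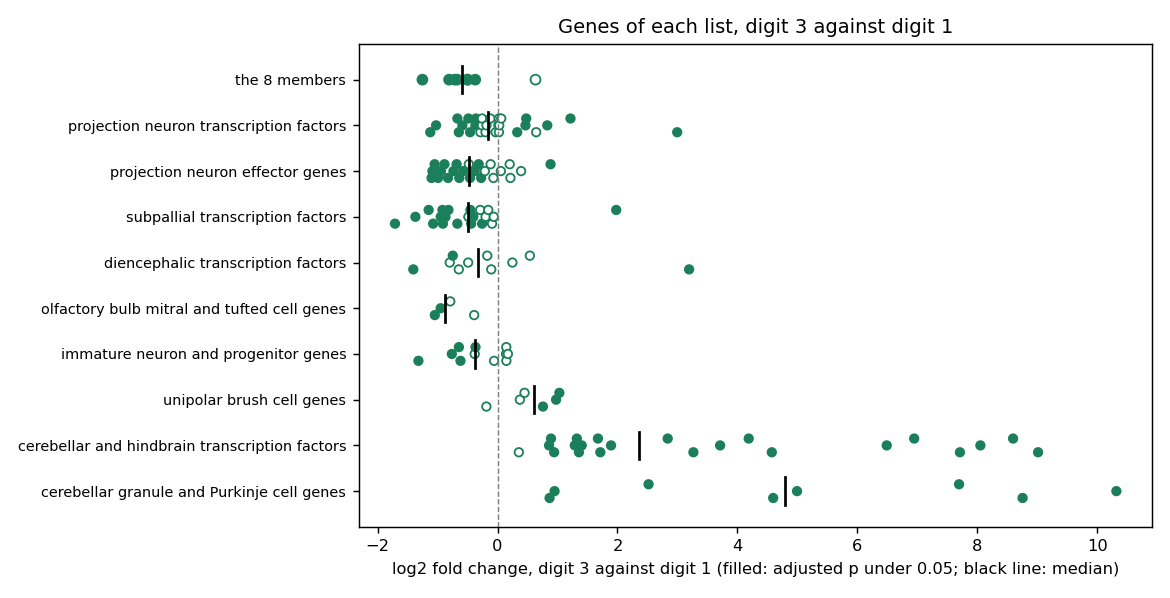
Log2 fold change between digit 3 and digit 1 mice (x axis, edgeR with treatment as covariate) of each gene of the members and of 9 gene lists. Each point is a gene, filled where the adjusted p was under 0.05, and black lines are medians. The median is -0.59 for the members and -0.47 for the projection neuron effector genes, against 2.37 for the cerebellar and hindbrain factors and 4.80 for the granule and Purkinje cell genes.

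The difference between the digits could also be read with treatment held constant, in the 3 digit 1 and 3 digit 3 mice that received FTY720. Here 6 of 8 members were lower at an adjusted p under 0.05, against 9.19% of all 17334 genes tested. Emx1 differed by -1.35 ± 0.22, Lhx2 by -0.83 ± 0.13 and Neurod6 by -0.65 ± 0.16 on the log2 scale (SE). Emx2 (-0.65 ± 0.23 SE, adjusted p = 0.071, edgeR) and Eomes (0.87 ± 0.31 SE, adjusted p = 0.073, edgeR) did not pass. These mice are also part of the comparison of all 10. With placebo, only P1-623 had the digit 1, so the same comparison could not be made with replicates.

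FTY720 was compared with placebo within the 6 digit 3 mice, the only digit with replicates of both treatments, to ask whether the drug moved the members apart from the digit. No member passed an adjusted p of 0.05, and neither did any of the 17656 genes tested (smallest adjusted p = 0.65, edgeR; 1283 genes at an unadjusted p under 0.05). With DESeq2 5 genes passed and with limma 0, and no member was among them. Emx1 was the 1 member of 8 at an unadjusted p under 0.05 in the lower direction, which 4.49% of all genes reached. For 0 of 8 members did every FTY720 mouse lie below every placebo mouse, against 6.48% of all genes.

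Emx1 stood at 3.58, 5.70 and 6.45 CPM in F3-609, F3-612 and F3-908 and at 10.1, 6.41 and 8.72 CPM in P3-612, P3-904 and P3-907. The groups overlapped, since F3-908 lay just above P3-904. The log2 fold change was -0.68 ± 0.26 (SE, p = 0.028, adjusted p = 0.65, edgeR), and the exact permutation test over 20 splits gave p = 0.20, where 0.10 is the smallest possible. It was -0.47 without F3-609, -0.52 without P3-612 and -0.65 without P3-907, with unadjusted p of 0.092, 0.078 and 0.068 in edgeR. The granule and Purkinje cell genes other than Itpr1 and Calb1, set apart after their values were seen, summed to 1037, 1005 and 1005 CPM with FTY720. With placebo they summed to 970, 910 and 924 CPM, in the same order, without overlap. Sums of all 8 genes did overlap, at 2537, 2599 and 2128 CPM with FTY720 and 1987, 2293 and 2092 CPM with placebo. Of the 8 genes, 6 were higher with FTY720 and 2 lower, Pcp2 (-0.28) and Cbln1 (-0.20) on the log2 scale. None of these genes passed the adjusted threshold. Their part in the level of Emx1 was not tested.

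Lhx2 ranked the mice as Emx1 did, except for P3-612 and P3-907. It stood at 28.9, 34.5 and 37.4 CPM with FTY720 and 40.7, 36.8 and 42.3 CPM with placebo. F3-908 lay above P3-904, so these groups overlapped (log2 fold change -0.24 ± 0.13 SE, p = 0.099, edgeR; exact permutation p = 0.20). Fezf2 differed by -0.20 ± 0.14 and Tbr1 by -0.12 ± 0.11 on the log2 scale (SE). Neurod6 and Bcl11b each differed by -0.07 ± 0.12, Emx2 by -0.01 ± 0.18 and Eomes by 0.18 ± 0.23. A fall of Tbr1 below 77.6% of the placebo level lay outside its 95% interval, whereas for Emx1 the interval reached from 41.7 to 93.7%.

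**Figure D5:**
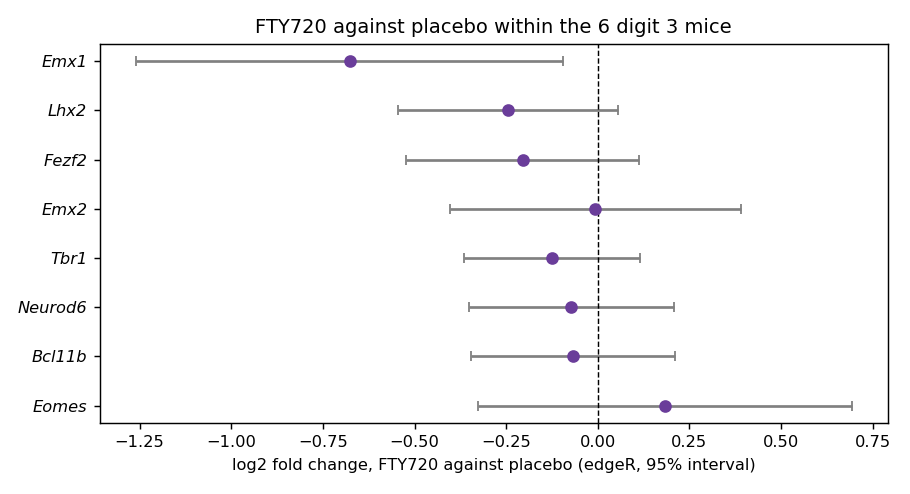
Log2 fold change of each member between FTY720 (n = 3) and placebo (n = 3) mice of digit 3 (x axis), with bars for the 95% interval of the edgeR fit. The interval of Emx1 (-1.26 to -0.09) lies below 0 before adjustment, and those of the other 7 members include 0.

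Over all 10 mice without the digit in the model, 0 of 8 members had an unadjusted p under 0.05 for FTY720 against placebo, against 2.61% of all genes. The fold changes ran from -0.20 for Emx1 to 0.24 for Neurod6 on the log2 scale. With the digit as a covariate, 2 of 8 did, against 12.8% of all genes, and no gene passed after adjustment (smallest adjusted p = 0.35, edgeR). DESeq2 called 24 genes and limma 0, again without a member. The 2 members at the unadjusted threshold were Emx1 (-0.58 ± 0.18 SE, adjusted p = 0.35, edgeR) and Lhx2 (-0.22 ± 0.095 SE, adjusted p = 0.38, edgeR). A test of whether the FTY720 difference itself changed with the digit passed for 0 of 17665 genes at an adjusted p under 0.05 (345 at an unadjusted p under 0.05, edgeR), and for 0 with DESeq2 or limma. Among the members the interaction was between -0.47 ± 0.27 for Neurod6 and 0.66 ± 0.50 for Eomes on the log2 scale (SE), and rested on P1-623 as the only placebo mouse with digit 1.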

How the data were processed

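Brain RNA was sequenced from 10 Slc20a2-HO mice. Per the submitters' processing notes, the authors used CASAVA 1.8, fastp, HISAT2 2.0.5, featureCounts 1.5.0-p3 and DESeq2 1.20.0 with GRCm38. The deposited table holds whole-number counts per gene, not normalized, and the authors also deposited FPKM values. The strand setting is not given in the sources used here. FPKM was used for levels between genes and 1 alternative.

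After filterByExpr and TMM scaling, edgeR's quasi-likelihood test (version 4.0.16 in R 4.3.3) was run, with Benjamini-Hochberg adjustment over all genes tested. The treatment was a covariate between the digits. CPM used TMM-scaled totals. Single genes and ratios (0.5 added to counts) were compared by two-sided exact permutation tests, for single genes on log2 CPM with a prior count of 2 and without the covariate. Standard errors are the fold change divided by the root of F. Alternatives were DESeq2 1.42.0, limma 3.58.1 on log2(FPKM + 0.1), other scalings and filters, other covariates, and leaving out each mouse. No pair of libraries agreed within sampling noise (lowest chi-square per degree of freedom 16.1 over 45 pairs). Eomes had the fewest counts of the members (23 to 71 per mouse) and so the largest counting error.

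The members and gene lists were chosen with earlier results of these data known. Named besides the members were Slc20a2, in each list the 3 genes with the smallest p (all genes of lists of up to 8), and the 2 protein-coding genes most correlated with each member. The scripts were tested on simulated counts. Some genes that this rule names are not reported here.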

Additional observations from a re-analysis of the deposited data

Results flagged for a closer look

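One value stood far from the others of its group. Neurod6 in the digit 3 mice was 45.2 CPM in P3-612, and on log2 CPM the gap to the next mouse was 0.65 of the range of the 6 mice, above the critical value for 6 samples. In all, 32 combinations of a member and a group were screened, and chance alone marks about 1 in 20.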

How the results depend on the processing

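Between the digits, the 7 falling members were lower and Eomes was higher under every alternative, with 5 to 8 members past the threshold. The genes called were 3106 in FTY720 mice alone and 2593 (without P1-623) to 6000 with 1 mouse left out, 2908 without F3-609. Within digit 3, genes at an unadjusted p under 0.05 were 2340 with no filter, 738 with the leading digit of the mouse number as covariate and 388 to 3896 with 1 mouse left out (388 without F3-609, 399 without P3-907, 3896 without P3-904); the members at that p were 0 to 1. The treatment difference of Emx2 turned to 0.022 with that covariate and ran from -0.077 to 0.045 with 1 mouse left out. Likewise Neurod6 ran from -0.13 to 0.032 (positive without P3-612) and Bcl11b from -0.15 to 0.032 (positive without P3-904). Over all mice, such genes were 1117 with no filter, 2256 with the digit as covariate (2 members) and 281 (without P3-907) to 984 (without P3-904), 300 without P3-612; Emx1 was -0.58 with the digit as covariate and ran from -0.38 to 0.15 with 1 mouse left out, positive without P1-623. Ratio pairs past the threshold were 0 to 12 with 1 mouse left out. Apart from the fewer samples, splits or genes that some settings leave, the cause was not tested.

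No paired analysis was possible because FTY720 and placebo mice share only 1 number, 612 (F3-612 and P3-612), whose meaning is not given. The design has 1 placebo mouse with digit 1, and the meaning of the digit is unknown. Emx1, Emx2 and Eomes rest on the fewest counts.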
